A study of Mus musculus with 14 samples.

Results

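Oxidative phosphorylation is carried out by 5 protein complexes of the inner mitochondrial membrane. Nuclear genes named for their subunits were followed here in CD11b+ microglia/macrophages after traumatic brain injury (TBI). The genes were taken by name, namely *Nduf* followed by a, b, c, s or v and a digit, *Sdha* to *Sdhd*, names that start with *Uqcr* or *Atp5*, and *Cox4* to *Cox8* with any suffix. In the authors' table of 13308 genes, 86 names matched, and 5 of them, which end in -ps, were dropped. The remaining 81 genes, of 33939 genes measured, comprised 37 of complex I, 4 of complex II, 8 of complex III, 15 of complex IV (*Ndufa4* included) and 17 of complex V. The choice used names alone, but genes outside that table could not enter it. By names alone it also took in *Cox6c2*, annotated as a processed pseudogene. The entry for *Ndufb1* is annotated as a noncoding RNA of a bidirectional promoter.

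Complex I (NADH dehydrogenase) and complex II (succinate dehydrogenase) pass electrons from NADH and succinate to ubiquinone, complex III passes them on to cytochrome c, and complex IV (cytochrome c oxidase) passes them to oxygen. Complexes I, III and IV pump protons out of the matrix, and complex V, the ATP synthase, makes ATP as protons flow back. All of these complexes but complex II also hold subunits that the mitochondrial genome encodes. Microglia use both glycolysis and oxidative phosphorylation, and activation of microglia and macrophages is known to shift their balance.

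CD11b+ cells were isolated with magnetic beads from the contralateral (CL) and ipsilateral (IL) hemispheres of C57BL/6 mice, all males, aged 8 to 12 weeks, at 3 days after a controlled cortical impact on the IL side. Ctrl mice were *Cx3cr1*-CreER+/- and cKO mice *Cx3cr1*-CreER+/-;*Nhe1*flox/flox, so that both carried the Cre allele, and both received Tamoxifen. *Cx3cr1*, whose locus drives the Cre, is expressed in microglia and in other myeloid cells, among them monocytes. There were 4 libraries per hemisphere from Ctrl mice and 3 per hemisphere from cKO mice, 14 in all. Their labels carry 8 mouse numbers, 6 of which occur for both hemispheres, and libraries were taken as from 1 mouse only where they share a number. The deposited values are counts per 1000000 reads assigned to genes (CPM), and the reads behind a library ranged from 12.2 to 41.6 M. All 10 markers of homeostatic microglia were detected in every group, and of 8 neuronal markers 5 or 6 stayed under 1 CPM in every library of each group. In bulk RNA, fewer cells of a type and less RNA per cell cannot be told apart.

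Mean levels over the 14 libraries ranged from 1.30 CPM for *Cox6b2* to 841 CPM for *Atp5b*, with a median of 51.8 CPM. Of the 81 genes, 77 had a mean of at least 10 CPM. Per 1000 bases of mRNA, *Atp5b*, the catalytic subunit of the ATP synthase, was the most abundant with 439 CPM, followed by the complex IV subunits *Cox4i1* with 373 and *Cox6a1* with 284 CPM and the other large catalytic-head subunit, *Atp5a1*, with 242 CPM. At the other end were *Cox6b2*, with 2.35 CPM per 1000 bases, and *Atp5g2*, with 8.54. The level of *Atp5g2* depends on how reads were shared with *Gm10175*, a copy identical over 645 bases that was at 76.9 CPM. Most of these mRNAs are short. Among the 78 genes with a principal coding transcript in the annotation, the median length was 772.5 bases, and 50 were under 1000 bases. Where a gene has several such transcripts, the median of their lengths was taken.

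1 library stood apart in these genes. The IL library of Ctrl mouse 3546, which had the fewest reads, held 4409 CPM summed over the 81 genes, against 7783 to 8370 CPM in the other Ctrl IL libraries. For 73 of the 81 genes it was the lowest Ctrl IL library, and for 65 it was the lowest of all 14. The deficit was uneven. Its complex IV sum was 19.3% of the mean of the other Ctrl IL libraries and its complex I sum 37.9%, while complex III was at 62.9%, complex V at 75.8% and complex II at 92.4%. The differences followed the length of the mRNA. Against the mean log2(CPM + 1) of the other Ctrl IL libraries, the median log2 difference was -2.59 for the 23 genes with mRNAs under 600 bases, -2.26 for the 27 between 600 and 1000, -0.53 for the 21 between 1000 and 2000, and -0.31 for the 7 above. Across the 78 genes, which share this library, Spearman's rho between length and difference was 0.69. All coding genes of at least 5 CPM showed the same order in this library, with medians of -2.40, -1.46, -0.12 and 0.18 in these classes and 0.50 for mRNAs of 4000 bases or more. Ribosomal protein genes, another group of short and abundant mRNAs, summed to 33.6% of the mean of the other Ctrl IL libraries. The library also had the highest sum of border macrophage markers in Ctrl IL, 830 CPM against 514 to 590 CPM in the others, though of these 8 markers 4 were highest and 2 lowest in this library. Its sum of monocyte markers was 903 CPM against 624 to 760 CPM, of which *Fn1* alone made up 686 CPM, and without *Fn1* it was 217 CPM, within the 172 to 379 CPM of the others. Of the other marker lists, this library was the highest in Ctrl IL for 7 of 8 astrocyte markers (sum 182 CPM against 125 to 150 CPM) and 6 of 10 homeostatic microglia markers (26012 against 21300.2 to 23489 CPM), and the lowest for 6 of 8 endothelial markers (106 against 138 to 173 CPM), 6 of 8 cycling-cell markers (635 against 742 to 972 CPM) and 5 of 10 neutrophil markers. The part of these cells in its levels was not tested. Counts and medians over the 81 genes that involve Ctrl IL are given with and without this library.

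**Figure D1:**
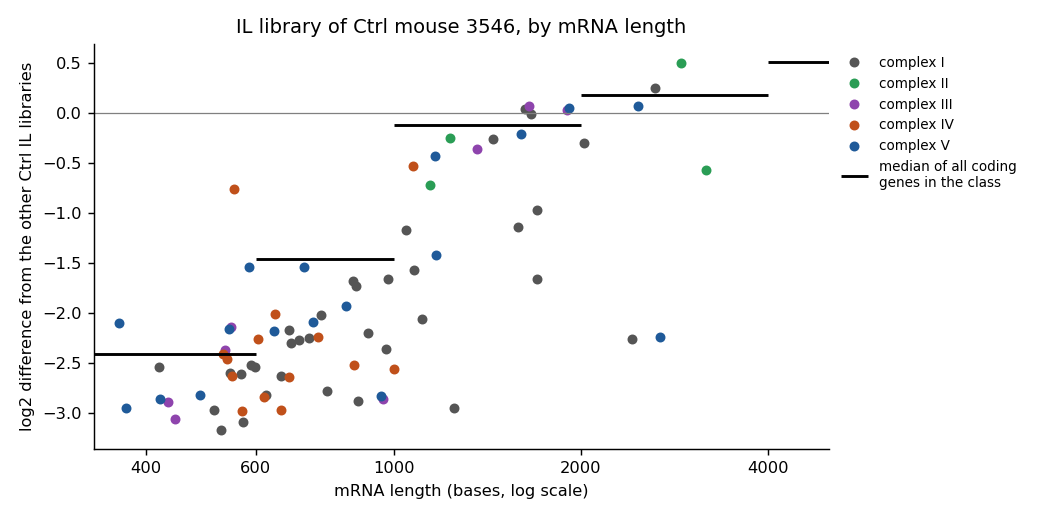
The log2 difference of the IL library of Ctrl mouse 3546 from the mean of the other 3 Ctrl IL libraries, on log2(CPM + 1), is plotted against mRNA length in bases on a log scale for 78 genes, coloured by complex. Black bars are the medians of all coding genes of at least 5 CPM in the length class, from -2.40 under 600 bases to 0.50 at 4000 bases or more.

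The summed level of each complex was higher in IL than in CL cells of cKO mice, with no overlap between the hemispheres for any of the 5. Summed over the 81 genes, the levels were 5236, 5323 and 5444 CPM in the cKO CL libraries and 6753, 6962 and 7592 CPM in the cKO IL libraries, a ratio of means of 1.33. The ratio was 1.29 for complex I, 1.19 for complex II, 1.33 for complex III, 1.45 for complex IV and 1.35 for complex V. In Ctrl mice, the summed levels were between 4910 and 6980 CPM in CL and, apart from the IL library of mouse 3546, between 7783 and 8370 CPM in IL, a ratio of 1.31, or of 1.17 with that library. Within each mouse that gave both hemispheres, the sum was higher in IL in 5 of 6 mice, with ratios from 1.15 to 1.43, and the remaining mouse was 3546, with 0.898.

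**Figure D2:**
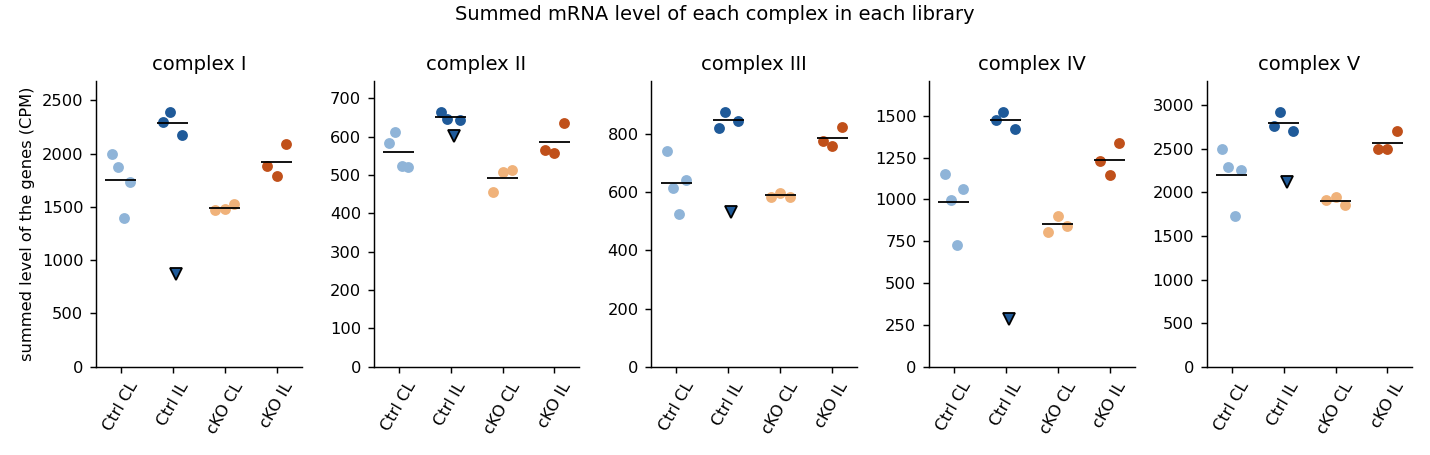
Each point is the level of a complex in 1 library, as the sum of the CPM of its genes, with the axis starting at 0. The triangle marks the IL library of Ctrl mouse 3546, and horizontal bars are group means without it. In every complex the 3 cKO IL libraries lie above the 3 cKO CL libraries.

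Gene by gene, 64 of the 81 genes rose in IL against CL cells of cKO mice and 0 fell. A gene was called where limma gave an adjusted p no higher than 0.05 and the levels differed at least 1.2-fold, and of all 16758 genes tested 12.7% were called higher, 9.58% lower and 22.3% in either direction. A log2 change is the log2 fold change on the scale of log2(CPM + 1). The median log2 change was 0.55 over the 81 genes and 0.02 over all genes tested. The rise was seen in 27 of 37 genes of complex I, 3 of 4 of complex II, 7 of 8 of complex III, 11 of 15 of complex IV and 16 of 17 of complex V, with medians of 0.42, 0.32, 0.56, 0.59 and 0.63 on the log2 scale. The lowest cKO IL value exceeded the highest cKO CL value for 69 of the 81 genes, where 42.4% of all genes tested had hemispheres that did not overlap in either direction. Of the 17 genes not called, 16 had a log2 fold change above 0, and the exception was *Cox6b2*. On the deposited CPM without further scaling, 55 of the 81 genes were called, all higher, while 9.83% of all genes were higher of 22.6% called. With the mouse as a block, over the 2 cKO mice with a number in both hemispheres, 38 genes were called, all higher (12 of complex I, 0 of complex II, 4 of complex III, 11 of complex IV and 11 of complex V), beside 8.94% of all genes called higher, 5.06% lower and 14% in either direction. With all 14 libraries in a single fit, in which the IL library of Ctrl mouse 3546 enters the estimate of the spread, 0 were called, beside 9.18% of all genes in either direction. Where that library was left out of a joint fit with mice as random effects, 55 were called, all higher, beside 13.7% of all genes called higher.

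Other measures moved with the hemispheres as well. Summed over 10 genes, markers of homeostatic microglia ranged from 36753 to 40444 CPM in cKO CL and from 21423 to 23651 CPM in cKO IL, with 7 of 10 called lower. The 10 markers of infiltrating monocytes summed to between 118 and 327 CPM in cKO CL and between 606 and 816 CPM in cKO IL, with 6 of 10 called higher, and the 10 neutrophil markers to between 1220 and 2107 and between 863 and 1083 CPM, with 5 of 10 called lower. None of these 30 markers was at 0 in all libraries of a group. The 8 markers of cycling cells summed to between 276 and 728 CPM in cKO CL and between 704 and 839 CPM in cKO IL, with all 8 log2 fold changes above 0, a median of 0.70 and 2 called higher, and of 7 oligodendrocyte markers tested 2 were called higher, with a median of 0.40. All 8 cycling-cell markers were above 0 in Ctrl as well, with a median of 0.60 and 1 called higher. Without the IL library of mouse 3546 their median was 0.91, with 1 called higher and 5 at an unadjusted p under 0.05. Of 8 oligodendrocyte markers, 7 were below 0 in Ctrl with and without that library, with 0 called. In Ctrl mice the monocyte sum ranged from 125 to 710 CPM in CL and from 624 to 903 CPM in IL, with 5 of 10 called higher though the sums overlapped. The homeostatic sum went from between 38786 and 43901 CPM in Ctrl CL to between 21300.2 and 26012 CPM in Ctrl IL, again with 7 of 10 called lower, and the neutrophil sum from between 1336 and 6912 CPM to between 873 and 1335 CPM, with 0 called by limma and 6 of 10 at an unadjusted p under 0.05. Without the IL library of mouse 3546, the Ctrl IL sums were between 624 and 760 CPM for monocyte markers, with 6 of 10 called higher, between 21300.2 and 23489 CPM for homeostatic markers, with 7 of 10 called lower, and between 890 and 1335 CPM for neutrophil markers, with 0 called. The part of these cells in the levels of the oxidative phosphorylation genes was not tested.

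*Cox7b*, *Uqcrq*, *Cox5a* and *Atp5mpl* had the highest log2 fold changes among the genes called in cKO. *Cox7b* (ENSMUSG00000031231, chromosome X of GRCm38 from 106015700 to 106022450), a small structural subunit of complex IV, was at 25.3, 32.4 and 32.2 CPM in cKO CL and at 49.8, 46.5 and 59.9 CPM in cKO IL. Its log2 change was 0.86 (limma, SE 0.11, adjusted p = 0.00285). In Ctrl it was at 38.4, 33.6, 25.3 and 43.7 CPM in CL and at 58.6, 60.2, 9.0 and 55.4 CPM in IL, the low value being that of mouse 3546. Apart from that library, every IL value in either genotype was above every CL value of the same genotype.

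*Uqcrq* (ENSMUSG00000044894, chromosome 11 from 53427922 to 53430831) encodes a small subunit of complex III that lies next to cytochrome b. It was at 65.2, 73.1 and 70.4 CPM in cKO CL and at 116, 113 and 127 CPM in cKO IL, a log2 change of 0.85 (limma, SE 0.08, adjusted p = 0.00181). The Ctrl values were 90.2, 76.2, 53.5 and 86.2 CPM in CL and 139, 139, 17.9 and 132 CPM in IL. With all Ctrl libraries 0 of the 8 genes of complex III, *Uqcrq* among them, were called, and their log2 fold changes reached 0.42 at most. Without the IL library of mouse 3546, the hemispheres of Ctrl mice again did not overlap, and the log2 fold change of *Uqcrq* was 0.99 (limma, SE 0.23, adjusted p = 0.0237).

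*Cox5a* (ENSMUSG00000000088, chromosome 9 from 57521274 to 57532426), a complex IV subunit on the matrix side, went from 44.4 ± 2.24 CPM in cKO CL to 76.5 ± 7.61 CPM (SD, n = 3) in IL cells, with a log2 change of 0.85 (limma, SE 0.09, adjusted p = 0.00188). *Atp5mpl* (ENSMUSG00000021290, chromosome 12 from 111961375 to 111966977), a small membrane subunit of the ATP synthase, went from 15.2 ± 1.29 to 26.5 ± 5.80 CPM, with a log2 change of 0.83 (limma, SE 0.14, adjusted p = 0.00595). Both were separate between the hemispheres of cKO mice. The changes of the other called genes ranged down to 0.28 on the log2 scale, and the largest adjusted p among the 64 was 0.0482.

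Some genes with longer mRNAs had smaller changes than *Cox7b*, *Uqcrq*, *Cox5a* and *Atp5mpl*. *Atp5b* was at 675 ± 40.5 CPM in cKO CL and 922 ± 27.4 CPM (SD, n = 3) in IL cells, a log2 change of 0.53 (limma, SE 0.12, adjusted p = 0.0177), and *Atp5a1* at 524 ± 2.68 and 636 ± 25.1 CPM, with 0.36 (limma, SE 0.10, adjusted p = 0.0378). *Uqcrc1*, a core subunit of complex III, rose from 253 ± 7.80 to 307 ± 7.85 CPM (log2 change 0.36, limma, SE 0.10, adjusted p = 0.0295). *Sdha*, the flavoprotein of complex II, had a log2 change of 0.35 (limma, SE 0.10, adjusted p = 0.0431). With the mouse as a block the calls of *Atp5a1*, *Uqcrc1* and *Sdha* were lost, with limma adjusted p values of 0.109, 0.0848 and 0.124. *Sdhd*, its membrane anchor, went from 123 ± 6.89 to 141 ± 4.22 CPM without a call (log2 change 0.28, limma, SE 0.09, adjusted p = 0.0575). In the IL library of Ctrl mouse 3546, *Atp5b* was at 979 CPM, where the rest of Ctrl IL had 926 to 970.3 CPM, and *Uqcrc1* at 312 CPM, where the rest had 269 to 323 CPM.

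Several subunits of complexes IV and V exist as isoforms from separate genes, one of them usually restricted to heart, skeletal muscle, testis or cells in hypoxia. The broadly expressed *Cox4i1*, *Cox6a1*, *Cox6b1*, *Cox7a2*, *Cox8a* and *Ndufa4* all rose in cKO IL, with log2 fold changes from 0.54 for *Cox8a* to 0.69 for *Cox6a1*. *Cox4i1*, for example, was at 220.1, 254 and 219.5 CPM in cKO CL and at 333, 317 and 351 CPM in cKO IL. Of the restricted isoforms, *Cox4i2*, *Cox7a1*, *Cox8b* and *Ndufa4l2* are not in the authors' table from which the 81 names came, and none exceeded 1.92 CPM in any library. *Cox6b2*, known from testis, was between 0.523 and 2.05 CPM throughout, with a log2 change of -0.13 (limma, SE 0.25, adjusted p = 0.737) in cKO. *Cox6a2*, the heart and muscle form of *Cox6a1*, was at 16.4, 14.8 and 6.16 CPM in cKO CL and at 31.9, 24.0 and 15.3 CPM in cKO IL. Its hemispheres overlapped, and the log2 change of 1.0 (SE 0.39) had a limma adjusted p of 0.102. With the mouse as a block, the log2 change was 1.02 and *Cox6a2* was called (limma adjusted p = 0.0161).

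The 3 genes for the c subunit of the ATP synthase encode the same mature ring protein. *Atp5g3* rose from 69.9 ± 0.676 to 112 ± 9.20 CPM in cKO (SD, n = 3; log2 change 0.75, limma, SE 0.08, adjusted p = 0.00181) and *Atp5g1* from 27.5 ± 1.79 to 42.7 ± 3.92 CPM (log2 change 0.70, limma, SE 0.09, adjusted p = 0.00297). *Atp5g2* was at 3.92 ± 0.824 and 5.42 ± 0.373 CPM, with a limma adjusted p of 0.116. Per 1000 bases of mRNA, *Atp5g3* was at 134 CPM, *Atp5g1* at 13.5 CPM and *Atp5g2* at 8.54 CPM over all libraries.

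In Ctrl mice, with all 8 libraries, 0 of the 81 genes were called between IL and CL, where 3.68% of 16376 genes were called higher, 2.97% lower and 6.65% in either direction. Without further scaling of the deposited CPM the count was also 0, with 3.82% of all genes higher of 8.79% called. An unadjusted p under 0.05 was reached by 1 of the 81 and by 21.2% of all genes. The median log2 change was 0.10, against -0.04 over all genes, and ranged from -0.18 to 0.61 as each of the 8 libraries was left out. It was below 0 without the CL library of mouse 3546 (-0.07) and without the IL library of mouse 3541 (-0.17), 3545 (-0.18) or 3551 (-0.02), and 0.21 without the CL library of mouse 3541. With the mouse as a block, 5 genes rose, namely *Atp5a1*, *Atp5pb*, *Ndufa10*, *Sdhc* and *Uqcrfs1*, beside 9.84% of all genes called higher and 20.5% in either direction. Without the IL library of mouse 3546, all 81 log2 fold changes were above 0, with a median of 0.61. Of the 81, 51 reached an unadjusted p under 0.05, as did 24.7% of all genes, and 20 genes were called, all of them higher, beside 4.89% of all genes called higher, 3.7% lower and 8.59% in either direction. Without that library every Ctrl IL value was above every Ctrl CL value for 55 of the 81 genes, against 28.2% of all genes with no overlap in either direction. With the whole mouse 3546 left out and the remaining 3 mice as blocks, 54 genes were called, all higher, beside 12.6% of all genes called higher. The 20 genes were all among the 64 called in cKO, and made up 31.2% of them.

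**Figure D3:**
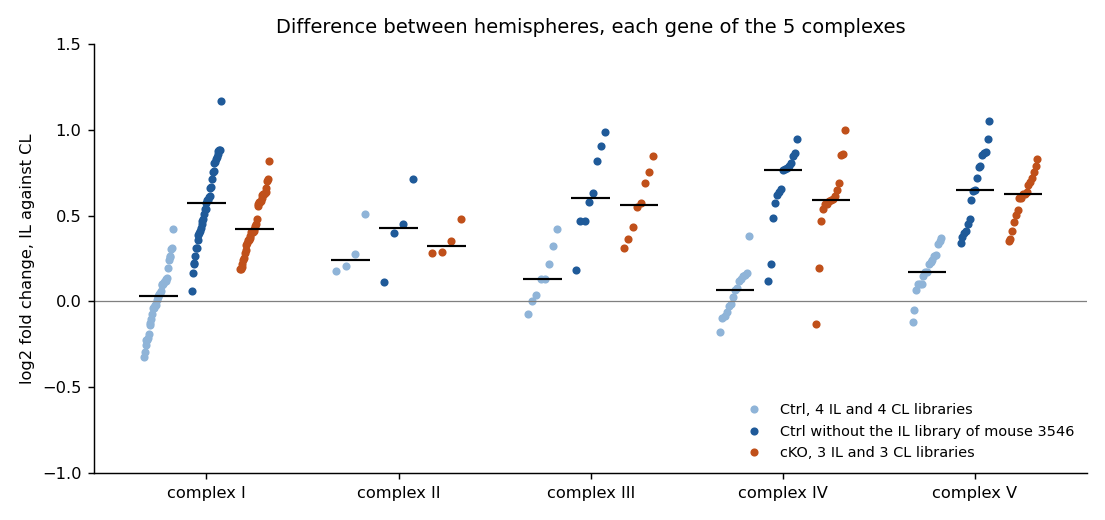
Each point is the log2 change of 1 gene between IL and CL, for Ctrl with all libraries (light blue), Ctrl without the IL library of mouse 3546 (dark blue) and cKO (orange), sorted within each complex. Black bars are medians. Over the 81 genes these are 0.10, 0.61 and 0.55.

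In cKO, and in Ctrl without the IL library of mouse 3546, the difference between hemispheres was larger for shorter mRNAs, while in Ctrl with all libraries the order was the opposite. In cKO, the median log2 change was 0.62 for the 23 oxidative phosphorylation genes under 600 bases, 0.60 for the 27 between 600 and 1000, 0.36 for the 21 between 1000 and 2000, and 0.40 for the 7 above. All coding genes of at least 5 CPM in these classes had medians of 0.55, 0.34, 0.13 and 0.00, and those of 4000 bases or more had -0.08. Under 600 bases, 82.6% of the oxidative phosphorylation genes and 55.8% of 120 coding genes were called higher. Between 1000 and 2000 bases, these shares were 71.4% and 22.2%. With the mouse as a block, they were 52.2% and 40.0% under 600 bases, and 28.6% and 16.5% between 1000 and 2000. In Ctrl without the IL library of mouse 3546, the medians in these 4 classes were 0.76, 0.65, 0.40 and 0.45 for the oxidative phosphorylation genes and 0.63, 0.38, 0.09 and -0.04 for all coding genes. With all Ctrl libraries they were 0.01, 0.08, 0.17 and 0.26 for the oxidative phosphorylation genes and between -0.05 and 0.01 for all coding genes. Over the 78 genes, which share their libraries, Spearman's rho between length and log2 change was -0.44 in cKO, -0.52 in Ctrl without that library and 0.32 in Ctrl with it. Of 78 ribosomal protein genes tested, 54 were called higher and 1 lower in cKO IL, with a median of 0.57. With all Ctrl libraries their median was -0.02, with 0 called higher and 1 lower. Without the IL library of mouse 3546 it was 0.55, with 71 of 78 above 0, 2 called higher and 0 lower. The part of mRNA length in the rise of the 81 genes was not tested beyond these classes.

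**Figure D4:**
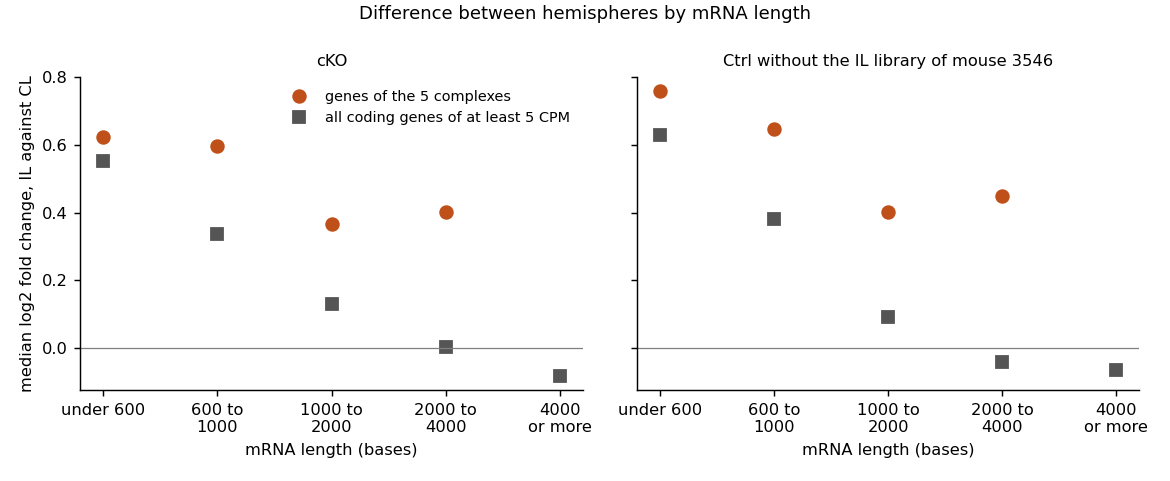
Median log2 fold change between IL and CL by class of mRNA length, for the genes of the 5 complexes (circles, 78 genes with a known length) and for all coding genes of at least 5 CPM (squares), in cKO and in Ctrl without the IL library of mouse 3546. In cKO the circles run from 0.62 in the shortest class to 0.40 in the class of 2000 to 4000 bases and the squares from 0.55 to 0.00. No gene of the 5 complexes is 4000 bases or longer.

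Between the genotypes, 0 of the 81 genes were called in the IL hemispheres, where 0.656% of 16919 genes were (0.301% lower), and 0 in the CL hemispheres, where 0.873% of 16603 genes were (0.41% lower). An unadjusted p under 0.05 was reached by 1 of the 81 genes in each hemisphere, and by 8.97% and 9.78% of all genes. In IL, the median log2 change of cKO against Ctrl was 0.26, with 63 of 81 genes above 0 and 3 without overlap between the genotypes, among them *Cox6a2*, which was higher in cKO (10.3% of all genes did not overlap in either direction). Without the Ctrl IL library of mouse 3541, 3545 or 3551 the median was 0.47, 0.50 or 0.39. The direction above 0 rested on a single IL library. With that library of Ctrl mouse 3546 left out the median was -0.33, 3 of 81 genes were above 0, 47 had every cKO IL value under every Ctrl IL value (21.2% of all genes did not overlap in either direction), 49 reached an unadjusted p under 0.05, as did 16.7% of all genes, and 1 was called lower, *Ndufs5*, beside 0.825% of all genes called lower and 1.7% in either direction. In that fit the 8 cycling-cell markers were all below 0, with a median of -0.25 and 5 at an unadjusted p under 0.05 but 0 called by limma, 71 of 78 ribosomal protein genes were below 0, with a median of -0.17 and 2 called lower, and 1 of 8 endothelial markers was called lower. Of 10 neutrophil markers, 8 were below 0, with a median of -0.46, 1 at an unadjusted p under 0.05 and 0 called by limma. The medians of oligodendrocyte and astrocyte markers were above 0, at 0.14 and 0.19, with 0 called. Spearman's rho between mRNA length and log2 change over 78 of the genes was 0.52 in that fit and -0.51 with all libraries. The part of these cells and of mRNA length in the IL values was not tested. In CL the median was -0.22, against -0.05 over all genes, with 79 of 81 genes below 0 and 4 without overlap, all lower in cKO (9.99% of all genes). The CL library of mouse 3546 was the lowest of the Ctrl CL libraries for 71 of the 81 genes, and without it the median was -0.36, 35 genes reached an unadjusted p under 0.05, as did 17.3% of all genes, and 1, again *Ndufs5*, was called lower, beside 0.425% of all genes called lower and 0.991% in either direction. Without the CL library of Ctrl mouse 3541 instead, the median was -0.10 and 17 of 81 genes were above 0. Markers of other cells lay below 0 in CL as well, with medians of -0.98 for oligodendrocytes (7 of 7 tested below 0, 1 called lower), -0.83 for border macrophages (8 of 8 below 0), -0.72 for endothelial cells (8 of 8) and -1.31 for neutrophils (9 of 10), the last 3 lists with 0 called by limma and 4, 2 and 3 genes at an unadjusted p under 0.05. T and NK cell markers had a median of -0.81, with 5 of 5 tested below 0, 4 at an unadjusted p under 0.05 and 0 called. Cycling-cell markers had a median of -0.26, with 7 of 8 below 0 and 0 called. Of 10 homeostatic microglia markers 5 were above 0, with a median of -0.04. Of 78 ribosomal protein genes, 75 were below 0 in CL, with a median of -0.18 and 1 called lower. The part of these cells in the CL levels of the 81 genes was not tested.

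Whether the rise from CL to IL differed between the genotypes was tested as an interaction over all 14 libraries. The interaction was called for 0 of the 81 genes and for 0% of 18476 genes, with an unadjusted p under 0.05 for 0 of the 81 and 2.6% of all. The median difference, cKO less Ctrl, was 0.47 on the log2 scale with all libraries and -0.11 without the IL library of mouse 3546.

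*Ndufs5* (ENSMUSG00000028648, chromosome 4 from 123712710 to 123718202), a small accessory subunit of complex I on the side of the intermembrane space, was the gene furthest below 0 between the genotypes. In CL it was at 24.2, 24.2, 14.7 and 21.8 CPM in Ctrl and at 8.82, 9.34 and 9.73 CPM in cKO, without overlap. The log2 change was -1.10 (limma, SE 0.25, adjusted p = 0.0818), and -1.29 without the CL library of mouse 3546 (limma adjusted p = 0.0180). Over all alternatives run for this comparison the adjusted p was between 0.0180 and 0.449. In IL it was at 35.0, 35.2, 5.02 and 31.9 CPM in Ctrl and at 13.4, 11.7 and 17.7 CPM in cKO. There the log2 change was -0.57 (limma, SE 0.65, adjusted p = 0.920), and -1.26 without the IL library of mouse 3546 (limma, SE 0.15, adjusted p = 0.00339). Apart from that library, every cKO value was under every Ctrl value of the same hemisphere. Between IL and CL the log2 change was 0.63 in cKO (limma, SE 0.15, adjusted p = 0.0189) and 0.12 in Ctrl with all libraries (limma adjusted p = 0.950). In Ctrl it was 0.81 without the IL library of mouse 3546, which did not pass the test (limma adjusted p = 0.0682). With the mouse as a block the change in cKO was 0.65 and the call was lost (limma adjusted p = 0.0775). In Ctrl it was 0.62 without mouse 3546 and with the block (limma adjusted p = 0.00527), and 0.74 where its IL library alone was left out of a fit of the other 13 with mice as random effects (limma adjusted p = 0.00249), and was called in both.

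A processed pseudogene, *Ndufs5-ps*, matches *Ndufs5* over 319 bases at 99.4% identity, so reads can be exchanged between them. *Ndufs5-ps* was at 2.98, 3.31, 3.4 and 5.61 CPM in Ctrl CL and at 5.60, 6.99 and 6.54 CPM in cKO CL. The highest Ctrl library was at the level of the lowest cKO library. In IL the pseudogene was at 6.49, 5.98, 1.19 and 6.66 CPM in Ctrl and at 9.59, 7.53 and 13.3 CPM in cKO, every cKO value above every Ctrl value. The log2 change of *Ndufs5-ps* between the genotypes was 0.63 in CL (limma adjusted p = 0.333). The sum of both was 27.2, 27.6, 18.1 and 27.4 CPM in Ctrl CL and 14.4, 16.3 and 16.3 CPM in cKO CL, still without overlap. In IL the sum was 41.5, 41.2, 6.22 and 38.6 CPM in Ctrl and 23.0, 19.3 and 31.0 CPM in cKO.

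**Figure D5:**
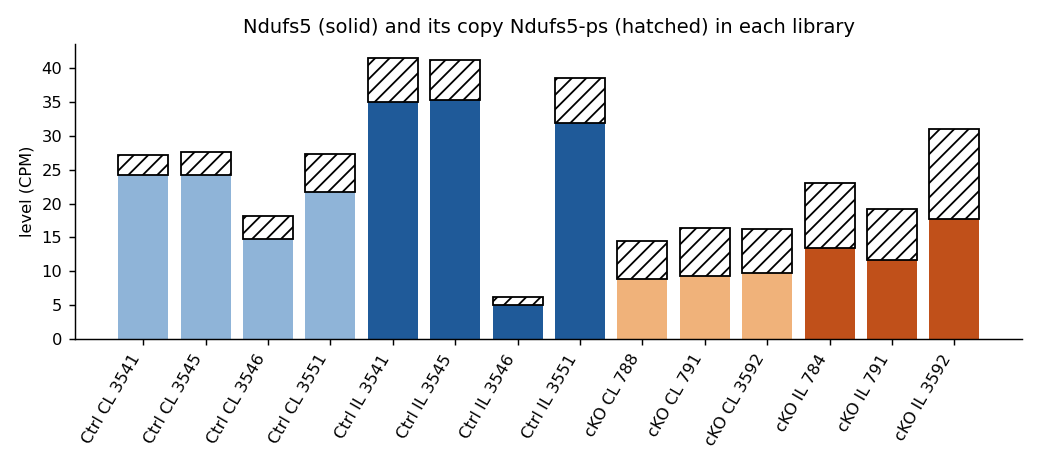
Stacked bars give the CPM of *Ndufs5* (solid, coloured by group) and of its pseudogene *Ndufs5-ps* (hatched) in each of the 14 libraries, with the axis starting at 0. In CL, the stacked height is between 18.1 and 27.6 CPM in Ctrl and between 14.4 and 16.3 CPM in cKO.

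At the other end, *Cox6a2* (ENSMUSG00000030785, chromosome 7 from 128205435 to 128206387) had the highest log2 fold change between the genotypes in both hemispheres. It was at 12.4, 5.97, 3.11 and 7.59 CPM in Ctrl CL, which overlap the cKO CL values given above, and at 11.1, 10.6, 0.90 and 10.9 CPM in Ctrl IL, all under the 3 cKO IL values. The log2 change of 0.72 in CL (limma, SE 0.44, adjusted p = 0.644) and that of 1.65 in IL (limma, SE 0.69, adjusted p = 0.519) did not pass the test, and neither did the 0.95 in IL without mouse 3546 (limma, SE 0.25, adjusted p = 0.0989). *Uqcrq* and *Atp5mpl* came next in IL, with 0.53 and 0.59, and both turned negative, to -0.25 and -0.17, without the IL library of mouse 3546. In CL, *Uqcrc1* with 0.09 and *Ndufb2*, an accessory subunit of complex I, with -0.05 followed *Cox6a2*, and *Atp5g3* with -0.40 and *Ndufs4*, which takes part in the assembly of complex I, with -0.37 followed *Ndufs5*. In IL, *Cox6b2* with -0.35 and *Sdhd* with -0.20 followed *Ndufs5*. None of these values passed the test, with limma adjusted p values between 0.602 and 0.945.

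Reads of other genes of this family are also open to exchange with copies. Of the 81 genes, 16 match another annotated gene at 95% identity or more over at least 150 bases and 50% of a coding transcript, and for 10 of them the copies held more than 10% of the gene's own mean level. The *Atp5g2* copy *Gm10175*, identical over 645 bases, was at 76.9 CPM on average, more than the 5.0 CPM of *Atp5g2* itself, and the *Ndufa12* copy *Ndufa12-ps* was at 24.2 CPM beside 21.2 CPM of *Ndufa12*. *Gm10039*, a copy of *Atp5g1*, was at 29.4 CPM beside 36.2 CPM. In cKO, these 3 copies were each called higher in IL, while *Atp5g2* itself was not. *Gm10175* had a log2 change of 0.35 between IL and CL (limma adjusted p = 0.0262), *Gm10039* of 0.63 (limma adjusted p = 0.0147) and *Ndufa12-ps* of 0.55 (limma adjusted p = 0.0163). The sum of *Atp5g2* and its copy was 73.6 ± 0.695 CPM in cKO CL and 89.8 ± 4.31 CPM (SD, n = 3) in IL cells.

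Other genes of the same organelle were described by lists, for IL against CL in cKO, where 12.7% of all genes were called higher and 9.58% lower. Of 17 genes for mobile carriers and export tested, 10 were called higher and 0 lower, with a median log2 change of 0.46. Among them were *Cycs*, cytochrome c itself, with 0.70 (limma, SE 0.10, adjusted p = 0.00336), *Coq7*, an enzyme of ubiquinone synthesis, with 0.88 (limma, SE 0.11, adjusted p = 0.00269), the phosphate carrier *Slc25a3* with 0.47 (limma adjusted p = 0.00768) and *Gpd2*, which feeds electrons from glycerol-3-phosphate to ubiquinone, with 0.82 (limma adjusted p = 0.00725). *Slc25a5*, an ATP/ADP carrier, was at 561 ± 25.1 CPM in cKO CL and 575 ± 9.53 CPM in cKO IL (limma adjusted p = 0.477). Of 20 genes of the TCA cycle, 6 were called higher, *Cs* and *Mdh2* among them with 0.47 and 0.55, and 1 lower, *Idh2*, with -0.53 (limma, SE 0.12, adjusted p = 0.0156), and the median was 0.26. Of 53 assembly factors, 4 were called higher, namely *Uqcc2*, *Cox17*, *Coa3* and *Coa5*, and 0 lower, with a median of 0.12, which as a share is under that of all genes.

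The mitochondrial genome encodes the remaining subunits. Of its 13 mRNAs, 1 was called higher in cKO IL, *mt-Atp6*, with a log2 change of 0.38 (limma, SE 0.10, adjusted p = 0.0355), and 0 lower, with a median of 0.31, again a share under that of all genes. Of 18 genes that control mitochondrial gene expression or biogenesis, 1 was called higher, the mitochondrial RNA-binding protein gene *Slirp* (0.67, limma adjusted p = 0.00623), and 1 lower, the helicase gene *Twnk* (-0.53, limma adjusted p = 0.0161), with a median of -0.08, in both directions a share under that of all genes. *Ppargc1a*, the coactivator known as a driver of mitochondrial biogenesis, was at 1.01 ± 0.516 CPM in cKO CL and 1.03 ± 0.585 CPM in cKO IL. *Tfam*, *Nrf1* and *Gabpa*, which encode transcription factors of this programme, had log2 fold changes of -0.26, -0.13 and -0.04, and none was called. In Ctrl with all libraries, 0 genes of these 5 lists were called between the hemispheres, beside 6.65% of all genes. Without the IL library of mouse 3546 3 were called, *Cox17*, *Pet100* and *Coq7*, all higher. As a share this is under the 4.89% of all genes called higher.

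Nuclear genes of the respiratory chain often carry sites for NRF1, ETS factors such as GABPA, YY1 or ESRRA near their start sites. RefSeq promoter windows of GRCm38.p6, from 250 bases before to 50 after the start, were matched by symbol for 66 of the 81 genes. The NRF1 letters CGCATGCG were found on either strand in 9 of the 66 genes (13.6%), and in 2.07% of all 27025 genes with such a window. The ETS letters CCGGAAG were found in 17 (25.8%, against 9.93% of all genes), the YY1 letters AAGATGGCG in 7 (10.6%, against 1.64%) and the ESRRA letters TCAAGGTCA in 2 (3.03%, against 0.466%). The other 38 genes held none of these words, and 6 held at least 2 of them. The YY1 words lay in complexes I and V, in 5 of 32 and 2 of 15 genes with a window, and in 0 of the 19 genes of the other complexes. Windows of 60 bases are shown for genes named above, with the motif in capitals and the sequence read 5′ to 3′ on the strand of the gene, to let the words be seen in place.
*Cox6a1*, NRF1, chr5:115349086-115349145, minus strand: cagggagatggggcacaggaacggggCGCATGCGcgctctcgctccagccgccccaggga
*Atp5g2*, NRF1, chr15:102671055-102671114, minus strand: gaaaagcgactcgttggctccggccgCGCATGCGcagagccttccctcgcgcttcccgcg
*Sdhd*, ETS, chr9:50603862-50603921, minus strand: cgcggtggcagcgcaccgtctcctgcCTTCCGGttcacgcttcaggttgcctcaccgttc
*Cox6b1*, ETS, chr7:30626115-30626174, minus strand: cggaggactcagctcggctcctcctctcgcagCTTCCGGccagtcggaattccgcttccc
*Atp5g3*, ESRRA, chr2:73911344-73911403, minus strand: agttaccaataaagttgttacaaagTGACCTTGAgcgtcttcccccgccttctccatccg
The words start 161, 41, 46, 28 and 52 bases before the start site, and the ETS and ESRRA words are the reverse complements of the letters given above. Of these genes, *Cox6a1*, *Cox6b1* and *Atp5g3* were called higher in cKO IL and *Atp5g2* and *Sdhd* were not. A match of letters is a description of the window and says nothing of binding in these cells.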

How the data were processed

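CD11b+ cells of both hemispheres were profiled by RNA sequencing with a SMART-Seq v4 library preparation. Per the study's methods, the authors used STAR with the mm10 build for alignment and Partek Flow 8.0 for differential expression, and the tool that counted reads is not given in the sources used here. The deposited per-library table is labelled as raw counts, but each column sums to 1000000, so its values were taken as the CPM the authors made from gene counts. Low values stepped by the worth of 1 read, which gave 12.2 to 41.6 M reads per library (median 34.2 M), but only 75.3 to 81.1% of values under 100 reads came out whole within 0.03 of a read, so no count test was run. The authors' tables of their own comparisons hold fold changes, p-values and means, and only the gene names of 1 of them were used.

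CPM were rescaled by trimmed means (TMM, 30% of log ratios and 5% of levels, without weights) and tested as log2(CPM + 1) with limma 3.58.1 (R 4.3.3, trend), on the libraries of each comparison, or on all 14 for the interaction, with Benjamini-Hochberg adjustment over all genes tested. Genes needed the CPM of 10 reads at the median depth in as many libraries as the smaller group has and 15 reads in all, and all 81 genes passed in every comparison. The fit was tested on simulated data. Gene positions and mRNA lengths came from GENCODE vM21 (GRCm38) and copies from BLAST+ 2.17.0 on its transcripts. Python 3.11.15 with pandas 2.3.3 and matplotlib 3.10.9 was used for tables and plots.

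Groups came from the sample labels, and libraries with the same mouse number are hemispheres of 1 animal. Deviations from the group means correlated between the hemispheres of a mouse at 0.187 to 0.616 in 6 pairs (median 0.424), against -0.531 to 0.513 in 19 other pairs (median -0.220), so blocked values are given beside the printed counts and calls of the 5 complexes that they change. The rule for named genes took those called between genotypes, those changed most between hemispheres in cKO (4) and in Ctrl (up to 8), the 3 highest and 3 lowest between genotypes, and isoform pairs. *Atp5b*, *Atp5a1*, *Sdha* and the genes of other lists were named after their values were seen. The 81 genes and all lists were chosen with earlier results of these data known. Other scalings, pseudocounts, filters, designs and leaving out each library were run as alternatives, and those that leave out mouse 3546 in other ways were chosen after the data were seen. The level of the targeted gene is not reported here.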

Additional observations from a re-analysis of the deposited data

Results flagged for a closer look

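In each Ctrl group of 4 libraries, 26 values were checked for a library far from the rest, by the gap of the highest or lowest library to its neighbour as a share of the range, against Dixon's 95% critical value for this group size. In Ctrl IL, 18 values exceeded it, and in Ctrl CL 0. Chance alone gives about 1 in 20 for values chosen without regard to these levels. Some of the genes checked were named for their difference between genotypes, which uses these libraries, so this rate does not hold for them. In all 18 the library was the IL library of mouse 3546, on the low side. The shares were 0.854 for the summed level of complex I, 0.840 for complex III, 0.914 for complex IV and 0.852 for the 81 genes together, while the sums of complexes II and V stayed under the critical value. Among single genes they were 0.958 for *Cox6a2*, 0.942 for *Uqcrq*, 0.934 for *Cox4i1*, 0.921 for *Cox6a1*, 0.914 for *Ndufs4*, 0.906 for *Cox7b*, 0.905 for *Ndufa4*, 0.899 for *Cox8a*, 0.893 for *Atp5g1*, 0.890 for *Ndufs5*, 0.867 for *Cox7a2*, 0.859 for *Cox6b1*, 0.853 for *Cox5a* and 0.840 for *Atp5g3*. These 18 values share 1 library and are not independent of each other.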

How the results depend on the processing

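The number of genes called between IL and CL in cKO, 64 of 81, was 38 with the mouse as a fixed replicate block (8.94% of all genes called higher), 0 with all 14 libraries in a single fit (4.82%), 5 with mice added to it as random effects (10.5%), 55 with those effects and without the IL library of mouse 3546 (13.7%), and between 42 and 59 with a library left out. In Ctrl, where 0 were called, the count was 5 with the fixed block (9.84%), 7 with the random effect (13.1%), 12 without both libraries of mouse 3546 (4.12%), 54 without them and with the block (12.6%), 62 with 13 libraries and the random effect (15.4%), and between 0 and 20 with a library left out. Between the genotypes, the count was between 0 and 1 with a library left out, in IL and in CL. In Ctrl the values of *Cox6a1*, *Cox7a2*, *Cox8a* and *Ndufa4* between IL and CL, which were slightly below 0, changed sign to 0.61, 0.43, 0.47 and 0.41 on the log2 scale without mouse 3546 and with the block, and to 0.73, 0.55, 0.59 and 0.52 with 13 libraries and the random effect. Of 2076 other values, of named genes and medians, under an alternative, 36 newly passed the threshold and 52 no longer did. The sign changed in 147, of which 139 were called at neither setting and 8 are those just given. The block changed no call between genotypes. Deposited CPM without rescaling, the other scalings, pseudocounts and filters left each count of called genes among the 81 within 1.5 times its value. Over all genes, the count without a filter was 554 against 1089 between IL and CL in Ctrl, 66 against 111 between genotypes in IL and 88 against 145 in CL, where it was 86 with at least 10 reads asked of every library. The causes were not tested.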

Other observations

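Markers of other cells in the sorted material are given as ranges of the summed level over the libraries of a group. Border macrophage markers (8 genes) ranged from 342 to 723 CPM in Ctrl CL, 514 to 830 in Ctrl IL, 190 to 509 in cKO CL and 328 to 677 in cKO IL, with 1 of 8 called higher between IL and CL in each genotype and 1 called lower in Ctrl. In Ctrl IL apart from mouse 3546 the range was 514 to 590 CPM, with 2 of 8 called higher and 2 lower. Markers of cycling cells (8 genes) ranged from 323 to 887, 635 to 972, 276 to 728 and 704 to 839 CPM in the same order, with 1 of 8 called higher between IL and CL in Ctrl. Astrocyte markers lay between 125 and 236 CPM, endothelial markers between 86.7 and 359 CPM, oligodendrocyte markers between 178 and 326 CPM and neuronal markers between 3.21 and 6.32 CPM over all libraries. T and NK cell markers summed to between 6.03 and 24.4 CPM. B cell markers summed to between 320.5 and 833 CPM, with 4 of 6 genes under 1 CPM in every library of a group.

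*Atp5s*, a gene with a name of the same form that is not in the authors' table, was at 9.30 CPM on average. Its values ranged from 9.64 to 13.5 CPM in Ctrl CL and from 7.20 to 9.06 CPM in Ctrl IL. The cKO values were between 9.88 and 11.4 CPM in CL and between 6.06 and 8.77 CPM in IL. In both genotypes each IL value was under each CL value, with no test made.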
